A study of Mus musculus with 15 samples.

Results

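The vascular endothelial growth factor (VEGF) system was followed in subcutaneous Renca tumors through 9 genes, 4 ligands (*Vegfa*, *Vegfb*, *Vegfc* and *Pgf*), 3 receptors (*Flt1*, *Kdr* and *Flt4*) and 2 neuropilin coreceptors (*Nrp1* and *Nrp2*). They were picked by symbol from the 18279 genes of the table, and all 9 were found, none with a mean under 10 normalized counts. Of these genes, *Vegfb* was higher in all 10 *Pbrm1* knockout tumors than in any control tumor (1.37-fold), as 3.11% of all genes were without overlap. *Nrp1* was lower on average (0.798-fold), a call lost in 11 of 26 alternative settings. Both passed the test used here, as did 22.1% of all genes. The other 7 did not pass the test between knockout and control tumors, and the 3 receptors lay within 5% of the control level on average, with wide intervals.

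VEGF ligands are secreted proteins that drive the growth and permeability of blood and lymphatic vessels. They bind receptor tyrosine kinases on endothelial cells, where *Kdr* (VEGF receptor 2) carries most of the signal for blood vessel growth, *Flt1* (VEGF receptor 1) binds *Vegfa*, *Vegfb* and *Pgf* and can act as a decoy, and *Flt4* (VEGF receptor 3) serves the lymphatic ligands *Vegfc* and *Vegfd*. Neuropilins lack a kinase, bind VEGFs and class 3 semaphorins, and occur on many cell types, macrophages and tumor cells among them. In clear cell renal carcinoma, loss of *VHL* stabilizes hypoxia-inducible factors, of which *VEGFA* is a target, and drugs against this pathway are in use.

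Renca is a renal adenocarcinoma line from BALB/c mice, and *Pbrm1* encodes a subunit of the PBAF chromatin remodeling complex. All 15 tumors grew under the skin of female BALB/c mice, bought at 4 to 6 weeks of age, from Renca cells injected in Matrigel. The 5 control tumors (numbers 1 to 5) are labelled as Renca parental cells, while the series title and the methods speak of a control knockout, made with a control CRISPR/Cas9 plasmid. The *Pbrm1* KO #4 tumors (6 to 10, clone 4) and the *Pbrm1* KO #18 tumors (11 to 15, clone 18) came from cells given *Pbrm1* knockout plasmids with a repair plasmid for puromycin resistance and RFP, and each clone was sorted as a single cell. Each group is thus 1 line, the 5 samples of a group are tumors of that line, and genotype cannot be told apart from line. The labels name both untreated mice and mice given PD-1 antibody and do not say which of them gave these tumors. Tumors were taken at a size limit, at ulceration or at signs of distress, so that the age of a tumor at collection is not given per sample.

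*Pbrm1* itself had 7451.5 to 9870.6 normalized counts in control tumors and 2483.8 to 3137.5 in knockout tumors (log2 difference -1.69, SE 0.07, limma adjusted p = 2.94e-11), lower in 10 of 10. The libraries held 32924414 to 49099168 reads on genes. *Pax8* and *Cdh16*, which mark renal epithelium, and the epithelial keratins *Krt8* and *Krt18* were well above 0 in every group. So were the blood endothelial genes *Pecam1*, *Cdh5* and *Tie1*. *Krt19*, *Pax2* and *Epcam*, also followed as epithelial markers, were lower and averaged 66.6, 150 and 286 normalized counts over all tumors. *Prox1*, which defines lymphatic endothelium, was near 0 (2.44 ± 1.61 normalized counts in the control group, 1.74 ± 2.20 in clone 4 and 0.94 ± 1.60 in clone 18, SD, n = 5 each). Tumor 10 of clone 4 and tumor 13 of clone 18 stood apart from the rest of their groups in *Pgf* and in *Vegfb*, and in their counts as a whole. The distance between the reads of 2 tumors (chi-square per degree of freedom) was 89.02 to 164.2 with tumor 10 and 21.27 to 53.87 in other clone 4 pairs. It was 67.28 to 86.11 with tumor 13 and 19.11 to 44.24 in other clone 18 pairs. Several results are given with and without these tumors.

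In the mouse genome (GRCm38, GENCODE M21), *Vegfa* (ENSMUSG00000023951) lies on chromosome 17 from 46016993 to 46032369 and *Vegfb* (ENSMUSG00000024962) on chromosome 19 from 6982473 to 6987651. *Flt1* (ENSMUSG00000029648) and *Kdr* (ENSMUSG00000062960) share chromosome 5, from 147561604 to 147726011 and from 75932827 to 75978458. *Nrp1* (ENSMUSG00000025810) lies on chromosome 8 from 128358604 to 128503363 and *Nrp2* (ENSMUSG00000025969) on chromosome 1 from 62703285 to 62818695. *Vegfc* (ENSMUSG00000031520) is also on chromosome 8, from 54077606 to 54187096, *Pgf* (ENSMUSG00000004791) on chromosome 12 from 85166635 to 85177790, *Flt4* (ENSMUSG00000020357) on chromosome 11 from 49609263 to 49652739, and *Vegfd* (ENSMUSG00000031380) on chromosome X from 164373378 to 164402650. Counts cover the whole gene, so that the isoforms of *Vegfa* and the soluble form of *Flt1* were not separated. *Nrp2* overlaps *Gm37121* on the same strand (mean normalized count 9.51) and *Gm29083* on the other strand, and *Nrp1* contains *Mir1903*. The other 7 genes overlap no annotated gene.

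The sequence before the start of the gene is shown for 4 of the 9, the main ligand and its main receptor (*Vegfa*, *Kdr*), the ligand that rose in the knockout tumors and the receptor of that ligand (*Vegfb*, *Flt1*). Each run is the 250 bases before a RefSeq start (GRCm38.p6), 5′ to 3′ on the strand of the gene, at chr17:46032378-46032627, chr19:6987652-6987901, chr5:147726012-147726261 and chr5:75978456-75978705, all on the minus strand. Capitals mark the GC box, GGGCGG or CCGCCC on either strand, in which matches that overlap count separately.
Vegfa: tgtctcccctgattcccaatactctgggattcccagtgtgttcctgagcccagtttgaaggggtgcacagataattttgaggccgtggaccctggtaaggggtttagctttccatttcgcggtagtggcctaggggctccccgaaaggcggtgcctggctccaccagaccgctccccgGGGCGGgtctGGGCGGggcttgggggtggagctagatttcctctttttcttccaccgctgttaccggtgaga
Vegfb: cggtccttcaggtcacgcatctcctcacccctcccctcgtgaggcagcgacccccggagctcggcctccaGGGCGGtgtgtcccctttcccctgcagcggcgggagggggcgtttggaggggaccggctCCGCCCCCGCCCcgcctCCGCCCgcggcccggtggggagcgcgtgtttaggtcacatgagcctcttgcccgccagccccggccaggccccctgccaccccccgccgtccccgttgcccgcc
Flt1: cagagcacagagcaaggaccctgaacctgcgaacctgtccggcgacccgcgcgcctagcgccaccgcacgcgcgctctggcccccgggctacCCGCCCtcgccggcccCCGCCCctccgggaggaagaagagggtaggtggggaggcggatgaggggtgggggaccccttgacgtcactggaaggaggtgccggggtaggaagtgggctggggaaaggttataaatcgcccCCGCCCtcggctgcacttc
Kdr: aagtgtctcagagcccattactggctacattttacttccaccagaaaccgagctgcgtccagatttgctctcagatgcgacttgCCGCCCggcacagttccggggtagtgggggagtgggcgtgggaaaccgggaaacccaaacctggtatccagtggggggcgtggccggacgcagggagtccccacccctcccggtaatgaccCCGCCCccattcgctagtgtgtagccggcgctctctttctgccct
These windows held 2 GC boxes in *Vegfa*, 4 in *Vegfb*, 3 in *Flt1* and 2 in *Kdr*. Among the windows not shown, that of *Nrp2* held 5, more than that of *Vegfb*, and that of *Flt4* held 3. At least 1 GC box was found before a start of each of the 9 genes, of which *Vegfa* and *Pgf* have 2 starts each, against 32.7% of 32851 RefSeq windows of this length, and 4 or more were found in 4.09% of them. The core of the hypoxia response element (ACGTG or CACGT, in 16.6% of windows) was found for 1 of the 9 genes, before the second RefSeq start of *Vegfa*, at chr17:46025164-46025413. That window lies inside the annotated span of the gene, and the *Vegfa* window shown above held 0 such matches. The ETS core (AGGAAG or CTTCCT, in 29.5% of windows) was found in *Flt1* with 2 matches and in *Nrp1* with 1. Such matches describe the letters of these windows and not the binding of a factor.

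The 9 genes spanned a wide range of levels. Divided by the length of all annotated exons (normalized counts per kb, mean ± SD over 15 tumors), *Vegfa* was highest at 1440 ± 259, followed by *Nrp2* at 1122 ± 123 and *Vegfb* at 847 ± 152. *Nrp1* (210 ± 39.9), *Kdr* (173 ± 47.0) and *Flt1* (112 ± 21.4) formed a middle group. *Flt4* (53.6 ± 13.5), *Pgf* (53.5 ± 36.1) and *Vegfc* (29.8 ± 13.8) were lowest. *Vegfd*, a lymphatic ligand outside the 9, lay between *Vegfa* and *Nrp2* at 1326 ± 391 per kb. Neighbors in this order mostly overlapped, since *Vegfa* was above *Vegfd* in 9 of 15 tumors, *Vegfd* above *Nrp2* in 11, *Nrp2* above *Vegfb* in 14, *Nrp1* above *Kdr* in 12, *Flt4* above *Pgf* in 9 and *Pgf* above *Vegfc* in 11. *Kdr* was above *Flt1* in 15 of 15 tumors although their ranges overlapped, and the ranges of *Vegfb* and *Nrp1*, and of *Flt1* and *Flt4*, were apart. With the length of the longest transcript instead, *Nrp2* came first at 1976 per kb and *Pgf* (74.7) passed *Flt4* (70.5).

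**Figure D1:**
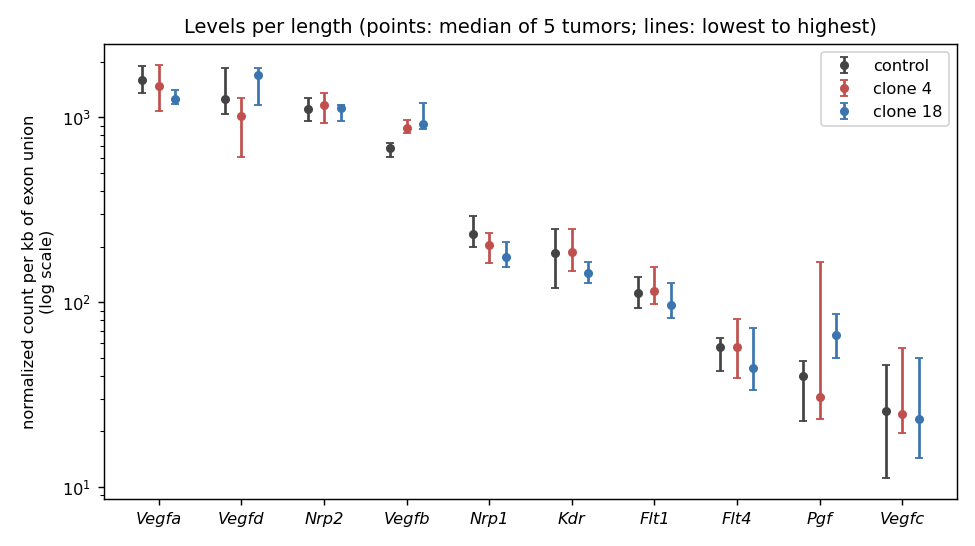
Levels of the VEGF genes and of *Vegfd* per length, in normalized counts per kb of annotated exon on a log axis. Points are the medians and lines run from the lowest to the highest of 5 tumors in control (grey), clone 4 (red) and clone 18 (blue). The 3 groups lay within the same range for most genes. Exceptions were *Vegfb*, where both clones were above the control, and *Pgf*, where clone 18 was.

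To ask whether *Pbrm1* loss went with a change in this system, log2(normalized count + 1) was compared between the 10 knockout tumors and the 5 controls in a limma fit across 18250 genes, and the 3 groups with one another in a second fit. Adjusted p values are those of limma after Benjamini-Hochberg adjustment over all genes, with a threshold of 0.05. In knockout tumors 2 of the 9 genes passed, *Vegfb* upward and *Nrp1* downward, where 22.1% of all genes did (9.23% higher and 12.9% lower). Against the same 5 controls, 1 of the 9 passed in clone 4 (*Vegfb*, where 16.8% of all genes passed, 6.79% higher and 10% lower) and 2 in clone 18 (*Vegfb* and *Nrp1*, where 24.7% of all genes passed, 10.4% higher and 14.2% lower). Between the clones none of the 9 had an adjusted p under the threshold in limma, 1 had an unadjusted p under 0.05 (*Flt1*), and 4.62% of all genes passed (2.49% higher and 2.13% lower in clone 18). The share of VEGF genes past the threshold was thus near that of all genes in the knockout comparison, 2 of 9 against 22.1%. The median log2 difference was 0.32 over the 4 ligands, -0.06 over the 3 receptors and -0.16 over the 2 neuropilins, beside -0.02 over all genes.

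**Figure D2:**
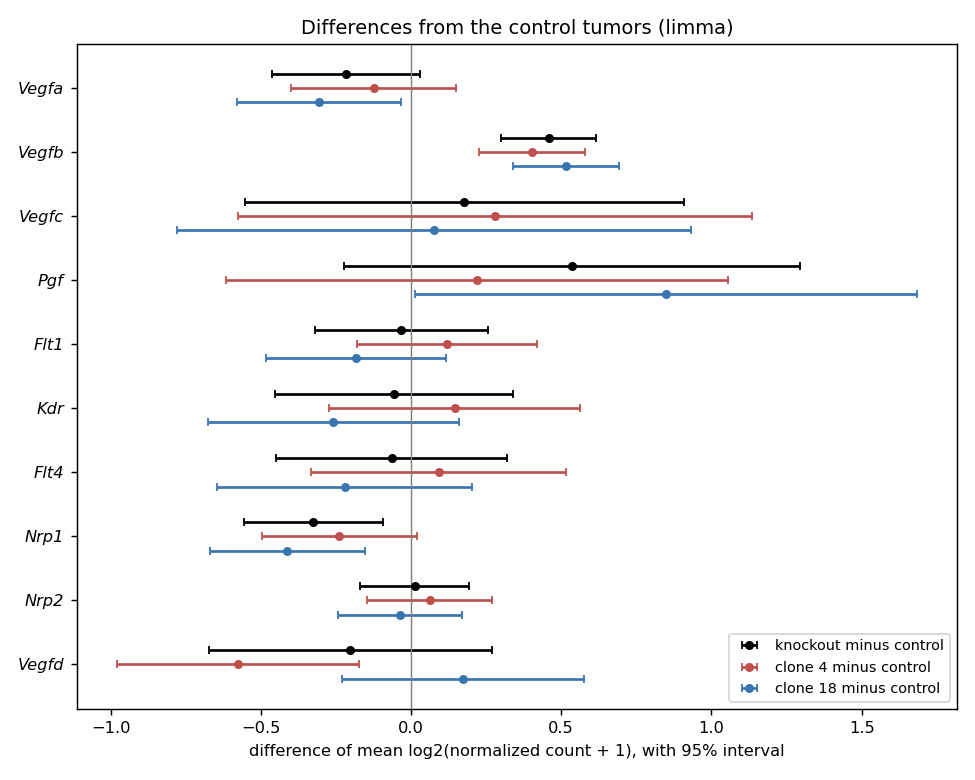
Log2 differences from the 5 control tumors for the 9 VEGF genes and *Vegfd*, with 95% intervals from limma, for all knockout tumors (black), clone 4 (red) and clone 18 (blue), which share their controls. The intervals of *Vegfb* lie above 0 in all 3 comparisons, and those of *Kdr*, *Flt1*, *Flt4* and *Nrp2* include 0 in all 3.

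*Vegfb*, a ligand of *Flt1* that is abundant in muscle and heart and linked to fatty acid uptake and vessel survival, was the member with the clearest difference. Its normalized counts were 976, 1079.8, 1098.9, 1173.2 and 1096.4 in control tumors 1 to 5. In clone 4 they were 1498.6, 1316.8, 1560.7, 1388.1 and 1406.9, and in clone 18 they were 1385.8, 1470.3, 1922.9, 1476.5 and 1537.1. The lowest knockout tumor (tumor 7) was above the highest control tumor (tumor 4), so the groups did not overlap, as for 3.11% of all genes in this direction. The log2 difference was 0.46 (SE 0.08, 95% interval 0.30 to 0.62, limma adjusted p = 0.000313), and the exact two-sided permutation test gave p = 0.000333, the smallest that 3003 splits allow. It was 0.40 in clone 4 (SE 0.08, limma adjusted p = 0.00292) and 0.52 in clone 18 (SE 0.08, limma adjusted p = 0.000297). The clones differed from each other by 0.11 (95% interval -0.06 to 0.29, limma adjusted p = 0.515). Without tumors 10 and 13 the difference was 0.42 (limma adjusted p = 0.000144). The limma and permutation tests take tumors as units, while the tumors of a group share 1 line. Their p values thus do not separate genotype from line, for this gene and for the others.

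Skeletal muscle genes, 8 of which were followed because the tumors lay under the skin, also varied. Their summed normalized counts ran from 102 to 269 in control tumors, from 81.1 to 1445 in clone 4 and from 124 to 2046 in clone 18, the median of their log2 differences between knockout and control was 2.16, and 0 of 8 passed the limma test (2 at an unadjusted p under 0.05). In clone 18 against the control the median was 3.00 and 1 of 8 passed (*Ckm*, muscle creatine kinase, 2.69, limma adjusted p = 0.0346). Of the 8, 5 had an unadjusted p under 0.05 in limma there, and in clone 4 the median was 0.91 and 0 passed. Among all genes, 22.1% passed in knockout tumors, 24.7% in clone 18 and 16.8% in clone 4. In the 5 knockout tumors whose muscle sum did not exceed the control maximum (6, 7, 8, 12 and 13), *Vegfb* ran from 1316.8 to 1922.9, and in the other 5 from 1385.8 to 1537.1. All 10 were above every control tumor, and the part of muscle transcripts in the *Vegfb* level was not tested. In a bulk sample, fewer cells of a type and less RNA per cell cannot be told apart, and this holds for each gene here.

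*Vegfa*, the main ligand of *Kdr* and a target of hypoxia-inducible factors, gave no change past the threshold. Its normalized counts were 5875.7, 7154.3, 5831.0, 8127.2 and 6857.8 in control tumors, 4645.1, 6334.5, 5156.4, 7075.9 and 8267.8 in clone 4, and 5053.5, 5417.4, 5180.9, 5551.1 and 5997.3 in clone 18. The groups overlapped, with 6 of 10 knockout tumors below every control tumor and 1 (tumor 10) above all of them. The log2 difference was -0.22 (SE 0.12, 95% interval -0.46 to 0.03, limma adjusted p = 0.21). Without tumors 10 and 13 it was -0.26 (SE 0.101, limma adjusted p = 0.0768). In clone 18, whose tumors varied least, it was -0.31 (SE 0.13, limma adjusted p = 0.0962), 5 of 5 tumors were below the control mean, and the exact permutation test of this gene alone gave p = 0.0238, unadjusted. In clone 4 it was -0.12 (SE 0.13, limma adjusted p = 0.588).

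With *Vegfb* higher and *Vegfa* not, the share of *Vegfb* among the 4 ligands per length had a larger mean in both clones. The ratio of *Vegfb* to *Vegfa* per kb was 0.432 ± 0.0454 in the controls, 0.64 ± 0.182 in clone 4 and 0.768 ± 0.126 in clone 18 (SD, n = 5 each). Clone 18 (0.684 to 0.991) did not overlap the control (0.385 to 0.503), and clone 4 (0.454 to 0.861) did. *Vegfb* made up 29.3% ± 1.91 of the 4 ligands in the controls, 37.2% ± 6.96 in clone 4 and 41.5% ± 3.89 in clone 18, and these ratios and shares were not tested.

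*Pgf*, placental growth factor, which binds *Flt1* and is induced in wounds and tumors, did not pass in either clone, although all tumors of clone 18 were above the control. Its normalized counts were 66.1, 139.2, 115.9, 118.8 and 97.3 in control tumors, 67.5, 88.9, 80.6, 113.8 and 480.1 in clone 4, and 215.3, 193.2, 158.4, 145.3 and 249.7 in clone 18. The lowest clone 18 tumor (14) was above the highest control tumor (2). The share of all genes so separated in clone 18 was not counted, and 24.7% of all genes passed the limma test there. In clone 4, 4 of the 5 tumors lay within the control range and tumor 10 stood far above it. Over all knockout tumors the log2 difference was 0.53 (SE 0.36, 95% interval -0.22 to 1.29, limma adjusted p = 0.323). In clone 18 it was 0.85 (SE 0.40, limma adjusted p = 0.131), and the exact permutation test of this gene alone gave p = 0.00794, unadjusted and the smallest that 252 splits allow. Without tumor 10 the log2 difference of clone 18 from the control was also 0.85, with an SE of 0.22 in place of 0.40 (limma adjusted p = 0.00841), and that from clone 4 was 1.12 (limma adjusted p = 0.00841), while clone 4 minus control turned to -0.27 (limma adjusted p = 0.467). In tumor 10 several marker sums were also the highest of clone 4. The sum was 2037 for neutrophil markers (531 to 765 in the rest of the clone) and 200856 for mural and fibroblast markers (29370 to 113556). It was 458048 for hypoxia response genes and regulators (220212 to 371501) and 25787 for endothelial markers (15126 to 25201). The part of these genes in the *Pgf* level of tumor 10 was not tested.

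*Vegfc*, a ligand of *Flt4* that drives lymphatic growth, had the lowest level of the 9 and varied widely between tumors of a group. Its normalized counts were 111.4, 27.3, 98.3, 42.6 and 63.4 in control tumors, 60.8, 98.4, 54.7, 47.8 and 139.2 in clone 4, and 83.7, 121.8, 35.3, 57.1 and 51.5 in clone 18. Tumors of each group were found across nearly the whole range, and the spread within a group (coefficient of variation 52.2%, 47.9% and 48.4%) exceeded any difference between groups. The log2 difference was 0.18 (SE 0.35, 95% interval -0.55 to 0.91, limma adjusted p = 0.773) which leaves room for knockout levels between 0.682 and 1.88 times the control level.

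**Figure D3:**
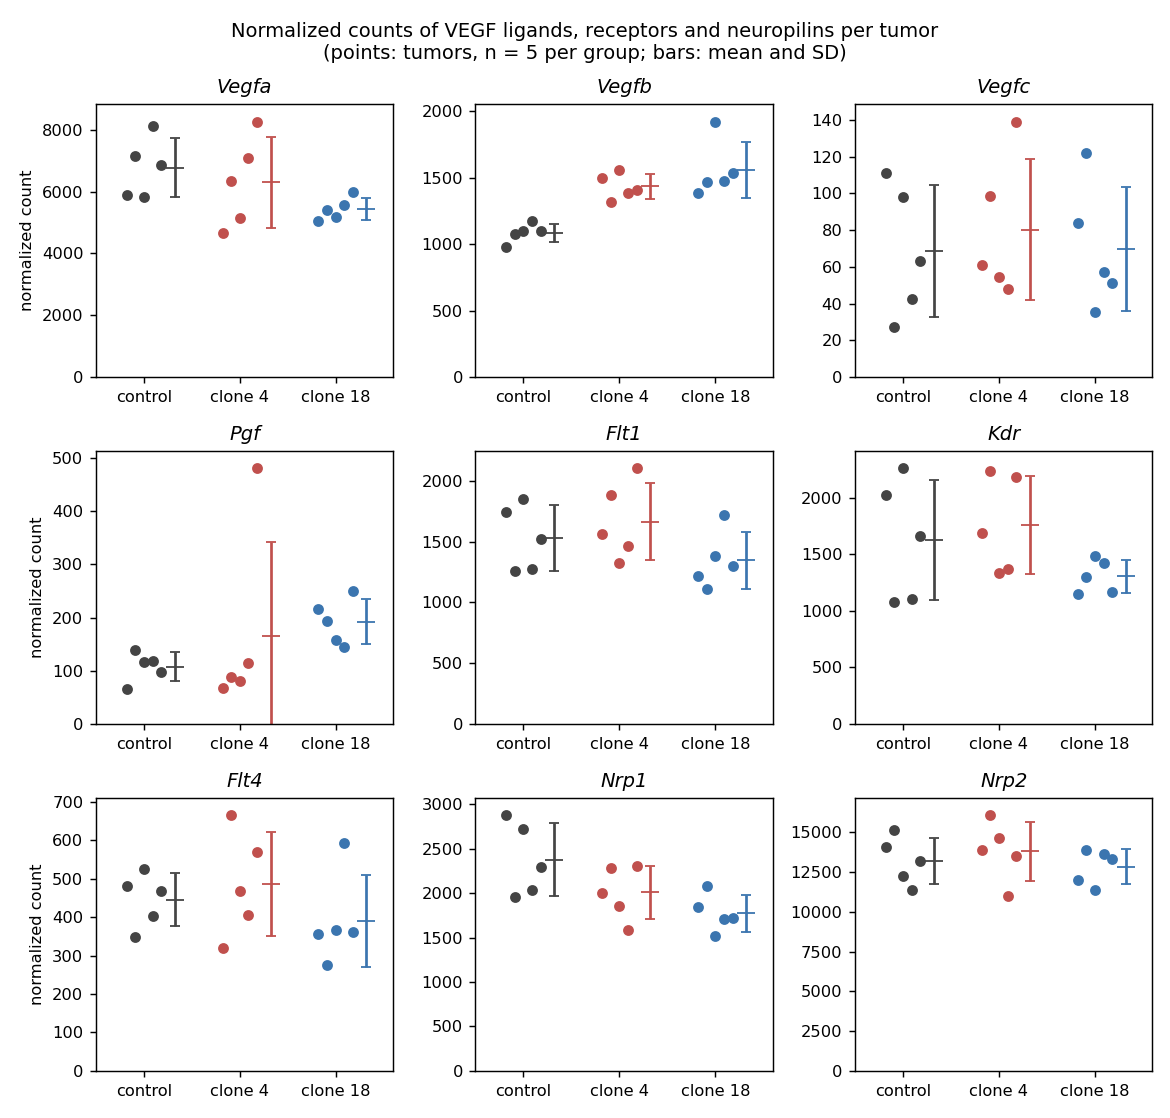
Normalized counts of the 9 VEGF genes in each tumor on linear axes from 0, with the mean and SD of each group beside the points (control grey, clone 4 red, clone 18 blue, n = 5 each). All knockout points of *Vegfb* lie above the control points, 1 clone 4 tumor stands at 480.1 in *Pgf*, and the groups overlap in *Kdr*, *Flt1*, *Flt4* and *Nrp2*.

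None of the 3 receptor tyrosine kinases passed the limma test between knockout and control tumors, and 0 of 3 had an unadjusted p under 0.05. *Kdr* had 2026.3, 1078.0, 2257.1, 1101.5 and 1664.2 normalized counts in control tumors, 1685.6, 2234.1, 1329.9, 1368.8 and 2185.6 in clone 4, and 1151.1, 1296.8, 1484.4, 1419.3 and 1169.9 in clone 18. Values were widely spread in the control and in clone 4, clone 18 tumors lay in the lower part of the control range, and no knockout tumor lay outside the control range. The log2 difference was -0.06 (SE 0.19, 95% interval -0.45 to 0.34, limma adjusted p = 0.873). For *Flt1* the values were 1743.1, 1255.9, 1850.0, 1276.3 and 1519.4 in control, 1558.3, 1881.5, 1321.9, 1459.8 and 2100.9 in clone 4, and 1217.5, 1108.6, 1384.9, 1718.0 and 1296.4 in clone 18. *Flt1* thus overlapped between groups as well, with a log2 difference of -0.03 (SE 0.14, 95% interval -0.32 to 0.26, limma adjusted p = 0.904). *Flt4* had 481.6, 348.8, 524.9, 403.4 and 469.5 in control, 320.2, 665.1, 468.5, 405.1 and 570.3 in clone 4, and 356.2, 276.8, 366.5, 594.4 and 361.6 in clone 18. Its log2 difference was -0.06 (SE 0.18, 95% interval -0.45 to 0.32, limma adjusted p = 0.852), and tumor 14 was high within clone 18.

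The mean of each receptor was lower in clone 18 than in clone 4, without passing the threshold. The log2 difference between the clones was -0.30 for *Flt1* (95% interval -0.60 to -0.0017, limma adjusted p = 0.269), -0.40 for *Kdr* (95% interval -0.82 to 0.01, limma adjusted p = 0.288) and -0.31 for *Flt4* (95% interval -0.74 to 0.11, limma adjusted p = 0.439). Blood endothelial markers varied over a similar range. The sum of 20 such genes ran from 15176 to 26121 in control tumors, from 15126 to 25787 in clone 4 and from 17272 to 21123 in clone 18, and none of the 20 was at 0 in a group. *Pecam1*, which encodes CD31, had a log2 difference of 0.15 in knockout tumors (SE 0.18, 95% interval -0.22 to 0.53, limma adjusted p = 0.593). With the mean log2 level of the endothelial markers as a covariate, *Kdr* was at -0.07 (limma adjusted p = 0.76) and *Flt1* at -0.04 (limma adjusted p = 0.799) in knockout tumors. Between the clones the same covariate left *Flt1* at -0.27 (limma adjusted p = 0.0914), *Kdr* at -0.36 (limma adjusted p = 0.13) and *Flt4* at -0.27 (limma adjusted p = 0.301). Of the 20 endothelial genes, 0 rose and 2 fell in knockout tumors, where 9.23% of all genes rose and 12.9% fell. The 2 were *Eng* (endoglin, a TGF-beta coreceptor, log2 difference -0.48, limma adjusted p = 0.000877) and *Ecscr* (-0.68, limma adjusted p = 0.00118), and the median over the list was 0.07. In clone 18 against the control the same 2 fell and 1 rose (*Esam*, 0.28, limma adjusted p = 0.0461). There 14.2% of all genes fell and 10.4% rose. Of 5 lymphatic markers found, 3 averaged fewer than 10 normalized counts. In this list 0 passed in knockout tumors. In clone 18 against the control 1 was higher (*Pdpn*, podoplanin, 0.35, limma adjusted p = 0.042), where 10.4% of all genes were higher. The means of *Pdpn* were 9217, 10390 and 11840 normalized counts in control, clone 4 and clone 18, whereas *Prox1* was near 0. The cells that gave the *Pdpn* reads were not tested.

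Of the neuropilins, *Nrp1* fell and *Nrp2* did not pass. *Nrp1*, which holds VEGF-A on *Kdr* and also occurs on macrophages and regulatory T cells, had 2874.6, 1952.6, 2723.5, 2036.0 and 2291.2 normalized counts in control tumors. Clone 4 had 2001.9, 2281.9, 1859.1, 1587.2 and 2310.4, and clone 18 had 1847.1, 2076.9, 1513.2, 1712.0 and 1718.5. Every knockout tumor lay under the mean of the controls, and 6 of the 10 lay under the lowest control, so the groups overlapped, whereas 4.87% of all genes were lower without overlap. The log2 difference was -0.33 (SE 0.11, 95% interval -0.56 to -0.09, limma adjusted p = 0.0412; exact permutation p = 0.0186). It was -0.24 in clone 4 (SE 0.12, limma adjusted p = 0.206) and -0.41 in clone 18 (SE 0.12, limma adjusted p = 0.0202), and the clones differed by -0.17 (95% interval -0.43 to 0.08, limma adjusted p = 0.489). The call was lost without any 1 of tumors 1, 3, 5, 8, 9, 11, 13, 14 or 15 (limma adjusted p 0.0559 to 0.138, the highest without control tumor 1, at a difference of -0.25), and that of clone 18 without tumor 1, 3 or 13 (limma adjusted p 0.055 to 0.0588). Without tumors 10 and 13 together the difference over all knockout tumors was -0.32 (limma adjusted p = 0.0338).

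Some macrophage and T cell markers fell as *Nrp1* did. The sum of 12 macrophage genes ran from 136144 to 213379 in control tumors, from 123685 to 158026 in clone 4 and from 109171 to 145574 in clone 18. In knockout tumors 5 of the 12 fell, *C1qa*, *C1qb* and *C1qc* (complement C1q chains), *Csf1r* (the CSF1 receptor, log2 difference -0.60, limma adjusted p = 0.00331) and *Mrc1* (the mannose receptor), 1 rose (*Cd14*, 0.42, limma adjusted p = 0.00352), 6 did not pass, and the median was -0.40. In clone 18 against the control 8 of the 12 fell and 2 rose, *Cd14* and *Cd68* (0.38, limma adjusted p = 0.018). There 14.2% of all genes fell and 10.4% rose. The sum of 9 T cell genes ran from 202 to 1270 in control tumors, from 228 to 385 in clone 4 and from 153 to 265 in clone 18, and 2 of the 9 fell in knockout tumors (*Cd3d* and *Cd3g*, 8 at an unadjusted p under 0.05, median -1.17). None of these macrophage and T cell genes was at 0 in a whole group. Their counts stand beside all genes, of which 9.23% rose and 12.9% fell in knockout tumors. Within groups, Pearson's r of *Nrp1* over the 15 tumors was 0.680 with the macrophage level and 0.709 with the T cell level, a description with no test. The part of either cell type in the lower *Nrp1* level was not tested. With the endothelial level as a covariate, the difference of *Nrp1* was -0.33 (limma adjusted p = 0.0239).

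*Nrp2*, the coreceptor of *Flt4* for *Vegfc*, had the highest count of the 9. Its normalized counts were 14053.8, 15120.7, 12277.6, 11355.4 and 13190.1 in control tumors, 13877.6, 16064.2, 14650.7, 10986.5 and 13495.6 in clone 4, and 11992.9, 13902.2, 11354.0, 13659.1 and 13292.0 in clone 18. The 3 groups overlapped almost fully, and its spread was the smallest of the 9, with a coefficient of variation of 11.0% over 15 tumors. The log2 difference was 0.01 (SE 0.09, 95% interval -0.17 to 0.19, limma adjusted p = 0.941). Per length, *Nrp2* exceeded *Nrp1* by a factor of 4.71 ± 1.03 in the controls, 5.72 ± 0.599 in clone 4 and 6.02 ± 0.54 in clone 18 (SD, n = 5 each), a ratio that depends on the lengths used and was not tested.

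Tumors of the control group and of clone 4 differed in a pattern shared by the receptors, *Nrp1* and *Vegfc*. Control tumors 1 and 3 were high and tumors 2 and 4 low in *Kdr*, *Flt1*, *Flt4*, *Nrp1* and *Vegfc*, and in clone 4 tumors 7 and 10 were high in all 5 of these genes. In clone 18 these genes parted, since tumor 12 was low in *Flt1* and *Flt4* and high in *Nrp1* and *Vegfc*, and tumor 14 was high in *Flt1* and *Flt4* and below the group mean in *Nrp1* and *Vegfc*. *Vegfd* went the other way in control tumors, highest in tumor 2 (4477.7) and lowest in tumor 3 (2525.1). After the mean of each group was taken off, Pearson's r over the 15 tumors was 0.859 for *Flt1* and *Kdr*, 0.791 for *Flt1* and *Flt4*, 0.748 for *Kdr* and *Nrp1*, and 0.948 for *Vegfc* and *Nrp1*. With the mean level of the endothelial markers, r was 0.849 for *Flt1* and 0.794 each for *Kdr* and *Flt4*, but 0.313 for *Vegfa*. *Vegfa* and *Pgf* went with the mean level of 22 hypoxia response genes and regulators, at 0.888 and 0.854, and with each other at 0.752. They also went with neutrophil markers (0.751 and 0.815) and with mural and fibroblast markers (0.617 and 0.690). With renal carcinoma epithelial markers r was 0.346 for *Vegfa* and 0.710 for *Pgf*. *Vegfd* stood against the endothelial markers at -0.713, and *Vegfb* was near 0 with *Vegfa* (-0.094) and negative with *Vegfc* (-0.584). These are descriptions over the same 15 libraries, which share dissection and cell makeup, and carry no test, and for *Pgf* they lean on tumor 10.

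**Figure D4:**
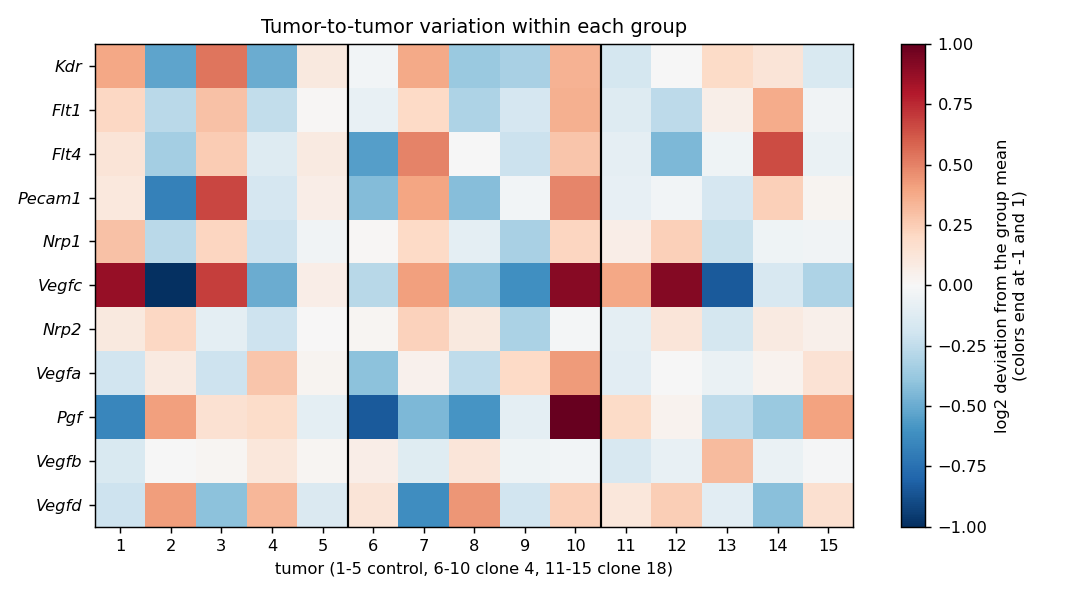
Log2 deviation of each tumor from the mean of its own group, for the 9 VEGF genes, *Pecam1* and *Vegfd*, with red above and blue below the group mean and colors ending at -1 and 1, which *Vegfc* and *Pgf* exceed in 1 tumor each. *Kdr*, *Flt1*, *Flt4*, *Pecam1* and *Nrp1* are high together in tumors 1, 3, 7 and 10, and *Pgf* reaches 1.97 in tumor 10.

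By the same measure, the 3 genes most like each member among 16493 with a mean of at least 10 were named. For *Kdr* these were *Galnt18* (r = 0.934), *Akna* (0.931) and *Arhgef15* (0.931), and for *Flt4* *Dchs1* (0.872), *Pde2a* (0.870) and *Plekhg1* (0.865). *Flt1* was closest to *RP24-167A12.4* (0.932), *Sema6a* (0.929) and *Col4a2* (0.928), the last a basement membrane collagen chain. *Vegfa* was closest to *Klf4* (0.946), *Casp4* (0.946) and *Fosb* (0.943), of which *Klf4* and *Fosb* encode transcription factors. *Pgf* was closest to *F3* (tissue factor, 0.945), *Tgfbr3* (0.909) and *Chst11* (0.907). *Vegfb* had less close neighbors, *Cox6a1* (a subunit of cytochrome c oxidase, 0.867), *Akt1s1* (0.845) and *Taf10* (0.837). *Vegfc* and *Nrp1* were each other's closest gene (0.948), followed by *Gm28417* (0.939) and *Kitl* (0.927) for *Vegfc* and by *Csk* (0.929) and *Itga9* (0.929) for *Nrp1*. *Nrp2* was closest to *Utrn* (0.934), *Numa1* (0.933) and *Cand1* (0.929).

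In a wider list of 38 VEGF pathway genes (the ligand *Vegfd*, signal relays, plexins and semaphorins that share the neuropilins, Notch partners and target genes), 3 rose and 4 fell in knockout tumors, with a median log2 difference of -0.04. The rises were *Sema3g* (a semaphorin of arterial endothelium, 0.69, limma adjusted p = 0.00244), *Nrarp* (a Notch target, 0.41, limma adjusted p = 0.00382) and *Sema3e* (a ligand of plexin D1, 1.09, limma adjusted p = 0.0314). The falls were *Ptpn6* (a phosphatase abundant in blood cells, -0.59, limma adjusted p = 0.00106), *Rcan1* (a calcineurin inhibitor induced by VEGF, -0.39, limma adjusted p = 0.00146), *Sema3b* (a semaphorin that binds neuropilins, -0.21, limma adjusted p = 0.0241) and *Prkcb* (a protein kinase C, -0.53, limma adjusted p = 0.0487). The 7 genes that passed stood on both sides, and their number out of 38 is to be read beside 22.1% of all genes.

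*Vegfd*, the other ligand of *Flt4*, differed between the clones. Its normalized counts were 2905.9, 4477.7, 2525.1, 4223.3 and 3036.6 in control tumors, 2459.0, 1463.0, 3052.7, 1962.7 and 2649.0 in clone 4, and 4088.1, 4481.1, 3517.2, 2818.6 and 4221.7 in clone 18. Of the 5 tumors of clone 18, 4 were above every tumor of clone 4. Clone 18 was higher by 0.75 on the log2 scale (SE 0.19, 95% interval 0.35 to 1.15, limma adjusted p = 0.0313; exact permutation p = 0.0159). Against the control, clone 4 was at -0.58 (limma adjusted p = 0.0474) and clone 18 at 0.17 (limma adjusted p = 0.564), so that over all knockout tumors the difference was -0.20 (limma adjusted p = 0.576). The call between the clones was lost without any 1 of tumors 7, 9, 11, 12, 13 or 15 (limma adjusted p 0.0527 to 0.0747), and that of clone 4 against the control without any 1 of tumors 1, 2, 4, 5, 6, 7, 9, 11, 12, 13 or 15 (limma adjusted p 0.0501 to 0.122, the highest without control tumor 2). In limma without trend neither passed (limma adjusted p = 0.0741 and 0.0883), and edgeR on the recovered reads gave an adjusted p of 0.0536 for clone 4 against the control. Per length, *Vegfd* made up 37.7% ± 4.12 of the 5 ligands in the controls, 28.1% ± 6.51 in clone 4 and 40.3% ± 4.69 in clone 18 (SD, n = 5 each).

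Between the clones 6 of the 38 pathway genes passed, where 4.62% of all genes did, *Vegfd* and *Sema3e* (1.14, limma adjusted p = 0.0381) higher in clone 18, and 4 lower. The latter were *Spry1* (an inhibitor of receptor tyrosine kinase signaling, -0.84, limma adjusted p = 0.000244), *Adamts1* (a secreted protease, -0.48, limma adjusted p = 0.00298), *Prkcb* (-0.62, limma adjusted p = 0.0363) and *Nr4a1* (an immediate early nuclear receptor, -0.46, limma adjusted p = 0.0384).

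A list of 22 hypoxia genes held response genes, the program to which *Vegfa* belongs, and the regulators *Hif1a*, *Epas1*, *Arnt* and *Vhl*. Of the 22, 5 passed in knockout tumors and 17 did not, a share near the 22.1% of all genes. None of the named regulators was among the 5. The 3 that rose were *Ankrd37* (1.40, limma adjusted p = 0.0029), *P4ha1* (a collagen prolyl hydroxylase, 0.38, limma adjusted p = 0.0142) and *Ddit4* (an mTORC1 inhibitor, 0.33, limma adjusted p = 0.0224). *Pfkfb4* (a regulator of glycolysis, -0.41, limma adjusted p = 0.00206) and *Ndrg1* (-0.48, limma adjusted p = 0.0273) fell, and the median over the list was 0.03.

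Further marker lists were read beside these results. In knockout tumors, 1 of 13 mural and fibroblast markers rose (*Des*, 0.42, limma adjusted p = 0.0258), while 2 of 7 neutrophil markers (*Csf3r* and *Ly6g*), 1 of 5 adipocyte markers (*Lep*) and 1 of 3 keratinocyte markers (*Trp63*) fell. *Ly6g*, *Lep* and *Trp63* were low genes, averaging 1.64, 9.44 and 7.02 normalized counts in control and 0.21, 1.25 and 2.17 in knockout tumors. Of 9 renal carcinoma epithelial markers, *Epcam* rose (1.23, limma adjusted p = 0.00286) and *Krt18* fell (-0.32, limma adjusted p = 0.0197). The counts in these short lists stand beside all genes, of which 9.23% rose and 12.9% fell. *Ly6g* was at 0 in all clone 18 tumors, *Krt14* in all control tumors and *Krt5* in all clone 4 tumors. These 3 genes were near 0 in every group, with means of 0.69, 0.73 and 0.85 over all tumors.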

How the data were processed

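RNA of 15 tumors was measured by bulk RNA sequencing, 1 library per tumor. The authors used TopHat2 against mm10 for alignment, HTSeq for read counts per gene and DESeq for size factors, by which counts were divided. Versions, annotation and strand setting are not given in the sources used here. The deposited signal is thus a normalized count, rounded to 0.1, for 18279 genes, and 0 columns stayed unassigned. Within each tumor, values of up to 8000 came in whole multiples of a step (100% within a tolerance of 0.06), from which reads were recovered (32924414 to 49099168 per tumor) for edgeR 4.0.16 and DESeq2 1.42.0 as alternatives. Without molecular identifiers, depth covers counting error only.

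Values were tested as log2(normalized count + 1), a scale that understates changes of low genes, with limma 3.58.1 with trend over 18250 genes (29 at 0 in every tumor were left out), knockout against control and by group. Benjamini-Hochberg adjustment ran over all genes. Exact permutation tests were two-sided over 3003 or 252 splits. The two-sample test of the methods was replaced by limma. Alternatives were pseudocounts of 0.1 and 5, a mean of at least 10, upper quartile and quantile scaling, limma without trend, the count tools, the endothelial level as a covariate, and each tumor left out. The limma, edgeR and DESeq2 fits, but not the permutation tests, were run on simulated counts. These were drawn independently per tumor with the same dispersion for every gene. They held no variation shared by the tumors of a line, so they cannot speak to line effects. Lengths and positions are from GENCODE M21 (GRCm38), and sequences from RefSeq (GRCm38.p6), which matched 9 of 9 genes.

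The members and the gene lists were chosen with earlier results of these data known. Named genes are the 9, *Pbrm1*, *Pecam1*, up to 6 genes of each list with the smallest adjusted p past 0.05, and the 3 most alike per member. Scripts ran in R 4.3.3 and in Python 3.11.15 (with matplotlib 3.10.9 for plots).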

Additional observations from a re-analysis of the deposited data

Results flagged for a closer look

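In 3 groups of 5 tumors, 1 tumor lay apart from the other 4. *Vegfb* in tumor 13 of clone 18 had 1922.9 normalized counts, against 1385.8 to 1537.1 in the rest of that clone. *Pgf* in tumor 10 of clone 4 had 480.1, against 67.5 to 113.8. *Flt4* in tumor 14 of clone 18 had 594.4, against 276.8 to 366.5. Among 36 groups examined for such gaps, chance alone gives about 1.8. *Vegfd* differed between the clones in the test of the difference itself, higher in clone 18 by 0.7492 on the log2 scale (limma adjusted p = 0.0313), with 4 of 5 tumors above every tumor of clone 4.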

How the results depend on the processing

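The rise of *Vegfb* in knockout tumors kept its direction and its side of the threshold in all 26 alternatives (log2 difference 0.42 to 0.49, limma, edgeR or DESeq2 adjusted p 9.77e-07 to 0.00162). The fall of *Nrp1* kept its direction in 26 and its call in 15. It was -0.2979 after quantile normalization (limma adjusted p = 0.0525) and -0.3256 in limma without trend (limma adjusted p = 0.0676), and -0.392 to -0.2526 with 1 tumor left out. The number of members past the threshold was 2, and 1 under quantile normalization, 1 in limma without trend and 1 to 2 with 1 tumor left out. *Vegfa* and *Pgf* kept their direction over all knockout tumors. The cause of these changes was not tested.

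Small differences of genes that did not pass changed sign when 1 tumor was left out. Knockout minus control ran from -0.1028 to 0.3946 for *Vegfc*, -0.0982 to 0.0414 for *Flt1*, -0.1883 to 0.078 for *Kdr*, -0.1482 to 0.0037 for *Flt4* and -0.04 to 0.0632 for *Nrp2*. Clone 4 minus control ran from -5e-04 to 0.497 for *Vegfc*, -0.273 to 0.43 for *Pgf* and -0.0318 to 0.2313 for *Flt4*. Clone 18 minus control ran from -0.2052 to 0.2923 for *Vegfc* and -0.0895 to 0.0138 for *Nrp2*, which was 0.0241 after quantile normalization. Clone 18 minus clone 4 ran from -0.4347 to 0.0219 for *Vegfc*. Without tumors 10 and 13, an alternative chosen after seeing the data, *Pgf* was -0.273 in clone 4 and 0.9118 in clone 18 against the control (limma adjusted p = 0.455 and 0.01), *Nrp2* was 0.0062 in clone 18 against the control, and *Vegfc* was 0.2315 in clone 18 against clone 4.

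Members past the threshold in clone 18 numbered 1 to 3 with 1 tumor left out, and 3 without tumors 10 and 13. Between the clones they numbered 0 to 1 with 1 tumor left out, and 1 (*Pgf*, 1.1848, limma adjusted p = 0.0116) without tumors 10 and 13. Over all genes, DESeq2 called 1354 between the clones, against 844 in limma. With the longest transcript as length, 7 of the 9 levels moved by more than 1 SD.

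No paired analysis was possible because the labels pair no tumor of one group with a tumor of another. With 5 tumors of 1 line per group, the low genes *Vegfc* and *Pgf* had the widest intervals, and line and genotype cannot be told apart.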
